A study of Mus musculus with 6 samples.

Results

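Two-pore potassium (K2P) channels are the leak channels of animal cells, and 10 of their genes were followed here: Kcnk1, Kcnk2, Kcnk3, Kcnk4, Kcnk5, Kcnk6, Kcnk10, Kcnk12, Kcnk13 and Kcnk18. They were taken by symbol from a count table of 45703 genes, and each symbol matched exactly 1 row. The table lists 14 K2P genes in all. The samples were 6 primary cultures of dorsal root ganglia (DRG), the ganglia that hold the cell bodies of sensory neurons. The donor mice were C57BL/6, wild type and 4 to 6 weeks old. The dissociated cells, treated with Liberase TH and Liberase TM, were grown on poly-L-lysine for 7 days in DMEM/F12 medium with 10% fetal calf serum, penicillin/streptomycin and EGF and FGF at 10 ng/ml. All cultures had the same genotype, treatment and age in vitro, so they formed 1 group of 6 replicates and no condition could be compared with another. RNA of each sample came from 2 dishes, and the labels do not say how many mice stood behind a culture or whether cultures shared a day, so the spread between samples may be partly technical.

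A K2P subunit carries a pair of pore-forming loops, and 2 subunits assemble into a channel. The channels stay open near the resting potential and let potassium leak out of the cell, which keeps the membrane negative and damps excitability. They are gated by stretch, heat, lipids, pH, anaesthetics or calcium signalling, and in sensory neurons several of them oppose firing in response to painful stimuli. The subfamilies are TWIK (Kcnk1, Kcnk6, Kcnk7), TREK (Kcnk2, Kcnk4, Kcnk10), TASK (Kcnk3, Kcnk9, Kcnk15), TALK (Kcnk5, Kcnk16), THIK (Kcnk12, Kcnk13) and TRESK (Kcnk18).

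The libraries held between 20070639 and 22968642 counts. Levels are given as CPM, a gene's count divided by the library total and multiplied by 1000000, and, where genes are compared with each other, as CPM per kilobase of the table's combined exon length. The 10 genes together took between 0.00847% and 0.0100% of a library, or 1700 to 2151 counts. The cultures were mixed. All 10 neuron markers (among them Tubb3, Snap25 and Scn9a), all 6 glial lineage markers (among them Sox10 and Erbb3), all 6 fibroblast markers, 5 of 6 mural cell markers, 4 of 6 macrophage markers, all 5 cell cycle markers and 2 of 5 endothelial markers reached 1 CPM in every library. None of the 5 lymphocyte markers did, and 4 of them had at most 3 counts in every library. Culture 5 stood apart: its fibroblast markers summed to 13967 CPM against 3338 to 7446 CPM in the other cultures, and its neuron and glial lineage sums were the lowest. In bulk RNA, fewer cells of a type and less RNA per cell cannot be told apart.

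Kcnk5 was the K2P gene with the highest level, and Kcnk13 came second. Kcnk5 (TASK-2) encodes a channel of the TALK subfamily that opens in alkaline conditions and is best known from kidney epithelium. Kcnk13 (THIK-1) encodes a halothane-inhibited channel known for the resting potential of microglia. Together they made up 83.9% ± 6.23 (SD, n = 6) of the summed level of the 10 genes, with a range from 72.4% in culture 5 to 89.7% in culture 2.

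Counts of Kcnk5 (gene 16529, chromosome 14, 20140057 to 20181782, minus strand, GRCm38.p6) corresponded to 41.8, 55.8, 62.7, 50.6, 51.7 and 69.1 CPM in cultures 1 to 6. Culture 1 was the lowest and culture 6 the highest, a 1.65-fold range. The mean was 55.3 ± 9.62 CPM, or 12.7 ± 2.21 CPM per kilobase (SD, n = 6). Kcnk13 (gene 217826, chromosome 12, 99963149 to 100062682, plus strand) was measured at 34.6, 26.6, 21.0, 18.8, 19.8 and 17.2 CPM in the same cultures. Here culture 1 was the highest and culture 6 the lowest, the reverse of Kcnk5, and the range was 2.01-fold. The mean was 23.01 ± 6.52 CPM, or 4.78 ± 1.35 CPM per kilobase (SD, n = 6).

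The sequence before the listed start of Kcnk5, the member with the highest level, is shown for its base composition; promoter activity was not measured. It is the RefSeq sequence (GRCm38.p6) at chr14:20181810-20182032 on the minus strand, 223 bases written 5′ to 3′ on the gene's strand, with CpG dinucleotides in capitals. The last 27 bases before the start are left off because GENCODE M21 annotates them as exon.
Kcnk5: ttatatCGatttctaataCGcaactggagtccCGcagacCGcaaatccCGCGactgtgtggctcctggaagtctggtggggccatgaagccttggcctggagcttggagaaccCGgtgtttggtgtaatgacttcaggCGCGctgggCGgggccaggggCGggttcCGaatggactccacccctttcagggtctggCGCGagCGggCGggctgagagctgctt

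The stretch holds 16 CpG dinucleotides. Over the full 250 bases there are 19, a number reached by 19.7% of the 32851 promoters in the RefSeq table, whose median is 6. The motif GGGCGG, searched on both strands, occurs 3 times in these bases. Of all promoters of that length, 32.7% hold it at least once and 8.47% hold it 3 or more times. The table listed starts for 8 of the 10 genes. Over 250 bases, CpG numbers ran from 0 for Kcnk1 to 28 for a start of Kcnk2, with 8 for Kcnk13.

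**Figure D1:**
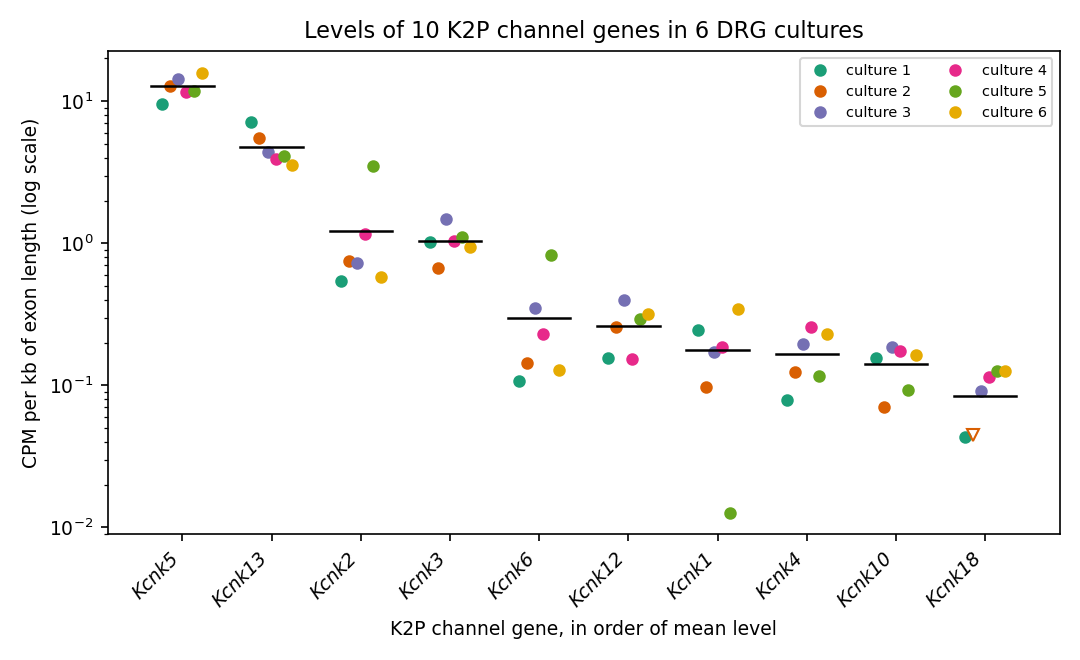
Level of each K2P gene (vertical axis, CPM per kilobase of exon length, log scale) in each of 6 cultures (coloured points), with the mean as a black line. The open triangle marks Kcnk18 in culture 2, which had 0 counts, at the level of 3 counts. Kcnk5 and Kcnk13 lie above all other members in every culture, and culture 5 stands above the others for Kcnk2 and Kcnk6.

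The order of the members by CPM per kilobase had only a few clear steps. Differences between neighbours were taken within each library as log2(CPM per kilobase + 0.1), and a pair was held to differ beyond its spread when the sign was the same in all 6 libraries and the mean exceeded the SD. This held for 3 of 9 neighbouring pairs. Kcnk5 exceeded Kcnk13 by 1.41 ± 0.58, Kcnk13 exceeded Kcnk2 by 2.16 ± 1.12, and Kcnk3 exceeded Kcnk6 by 1.71 ± 0.71 (log2, SD, n = 6). Kcnk2 and Kcnk3 were not ordered: Kcnk2 was the higher in 3 of 6 libraries, with a mean difference of -0.08 ± 0.94. The lower members, Kcnk6, Kcnk12, Kcnk1, Kcnk4, Kcnk10 and Kcnk18, overlapped their neighbours, with means from 0.297 CPM per kilobase for Kcnk6 to 0.0836 CPM per kilobase for Kcnk18. Without culture 5 the pair Kcnk10 and Kcnk18 also met the rule, as did Kcnk4 and Kcnk10 without culture 1.

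A level of at least 1 CPM in every library was reached by 4 of the 10 genes: Kcnk2, Kcnk3, Kcnk5 and Kcnk13. The same was true of 30.4% of all genes in the table and 55.8% of protein-coding genes. Of the 98 genes whose symbol begins with Kcn, the members among them, 42.9% did so. With all K2P genes left out, 45.2% of the other 84 Kcn genes did. The share among the K2P members is therefore near that of the Kcn genes in general. By mean CPM per kilobase, Kcnk5 ranked 7 and Kcnk13 ranked 9 among those 98 genes, whereas Kcnk2 ranked 22 and Kcnk3 ranked 24. The highest-ranked were the voltage-gated Kcna6, Kcna2 and Kcna1, at 122.8 ± 28.0, 66.9 ± 10.2 and 55.9 ± 8.98 CPM per kilobase (SD, n = 6), followed by Kcnj10, the inward rectifier of satellite glia.

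**Figure D2:**
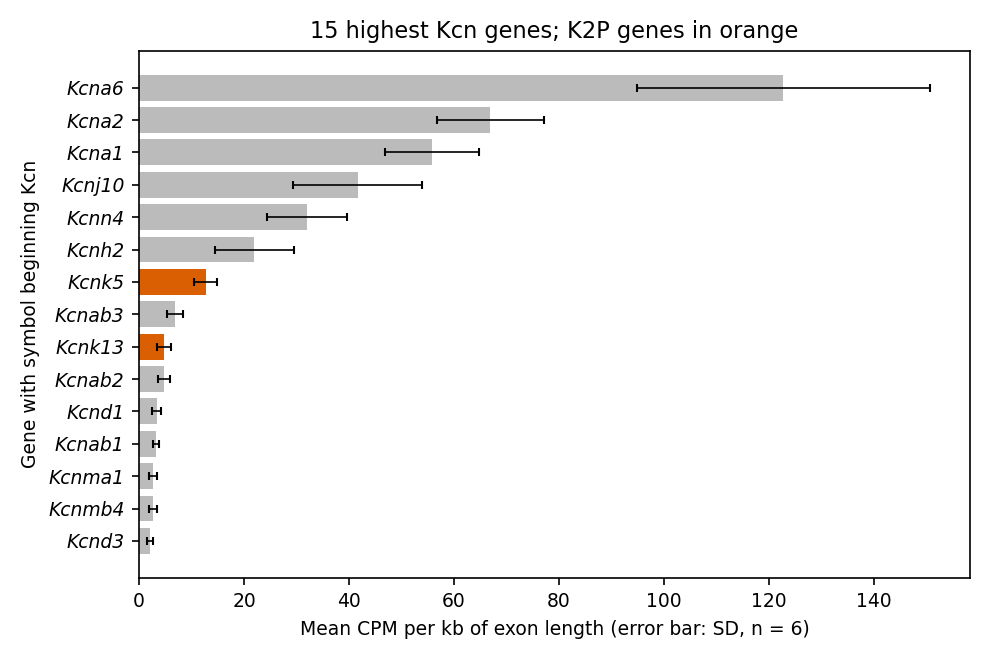
Mean level (horizontal axis, CPM per kilobase of exon length; error bars, SD over 6 cultures) of the 15 highest genes whose symbol begins with Kcn, with K2P genes in orange. Kcnk5 and Kcnk13 are the K2P genes among the 15.

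The TREK channels are opened by stretch, warmth and polyunsaturated fatty acids. Kcnk2 (TREK-1, gene 16526, chromosome 1, 189207930 to 189402782, minus strand) was measured at 2.83, 3.96, 3.79, 6.13, 18.4 and 3.01 CPM in cultures 1 to 6. Culture 5 lay far above the rest and culture 4 was the next. The mean of 6.36 ± 6.03 CPM (SD, n = 6) became 3.94 ± 1.31 CPM (SD, n = 5) without culture 5. An annotated pseudogene, Pdcd5-ps, lies within the Kcnk2 span on the same strand and had 83.5 to 105.5 counts. Kcnk2 itself had only whole counts.

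Kcnk10 (TREK-2, gene 72258, chromosome 12, 98429432 to 98578213, minus strand) was measured at 1.92, 0.865, 2.31, 2.14, 1.15 and 2.01 CPM, with cultures 2 and 5 the lowest. Its mean of 1.73 ± 0.584 CPM exceeded that of Kcnk6, but its combined exon length of 12315 bases, the longest among the members, placed it below Kcnk6 per kilobase, at 0.141 ± 0.0475 (SD, n = 6). Kcnk4 (TRAAK, gene 16528, chromosome 19, 6925662 to 6934883, minus strand), a mechanically gated channel of myelinated axons, was counted 6, 9, 14, 17, 8 and 16 times. The 6 counts of culture 1 have an exact 95% Poisson interval of 2.202 to 13.06, which overlaps the range of the other cultures; intervals of this kind cover counting error only. An annotated long non-coding RNA on the opposite strand of Kcnk4, Gm46646, had 6 to 20 counts. The strand setting of the counting is not given in the sources used here, so reads of the 2 genes may not be fully separated. Antisense RNAs also overlap Kcnk2, Kcnk3, Kcnk10 and Kcnk13, with at most 14 counts in any library.

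Among the acid-inhibited TASK channels, Kcnk3 (TASK-1, gene 16527, chromosome 5, 30588170 to 30625270, plus strand), which volatile anaesthetics activate, was measured at 3.92, 2.55, 5.68, 3.94, 4.25 and 3.59 CPM. Culture 3 was the highest and culture 2 the lowest. The mean was 3.99 ± 1.02 CPM (SD, n = 6). The neuron marker sum was also highest in culture 3, at 2248 CPM, but it was lowest in culture 5, at 1040 CPM, where Kcnk3 was second highest. Over the 6 libraries Kcnk3 had r = 0.55 with the neuron score (exact permutation p = 0.239, adjusted 0.654) and rho = 0.37 (exact permutation p = 0.497, adjusted 0.838), with r = 0.81 without cultures 2 and 5. The largest r of Kcnk3 among the 5 marker scores related below was 0.58, with the macrophage score (exact permutation p = 0.265, adjusted 0.620). There rho was 0.43 (exact permutation p = 0.419, adjusted 0.697), and r was 0.80 without cultures 1 and 5. The related Kcnk9, outside the 10 genes, had at most 12 counts, and Kcnk15 had 0 counts in every library.

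The TWIK channels pass small currents. Kcnk6 (TWIK-2, gene 52150, chromosome 7, 29221928 to 29232522, minus strand), known as a potassium efflux path of macrophages, was measured at 0.435, 0.592, 1.43, 0.947, 3.37 and 0.526 CPM. Culture 5 was again the highest, with culture 3 next. The mean was 1.22 ± 1.12 CPM (SD, n = 6) and became 0.786 ± 0.409 CPM (SD, n = 5) without culture 5. Kcnk1 (TWIK-1, gene 16525, chromosome 8, 125993655 to 126030685, plus strand) had the opposite extreme in culture 5. It was counted 21, 8, 14, 14, 1 and 27 times. The single count of culture 5 has an exact 95% Poisson interval of 0.0253 to 5.57, below the counts in every other culture. The 8 counts of culture 2 have an interval of 3.45 to 15.8, so the intervals of these cultures overlap. Kcnk7, the remaining TWIK gene, had at most 4 counts.

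Kcnk12 (THIK-2, gene 210741, chromosome 17, 87745821 to 87797994, minus strand), a relative of Kcnk13 that gives little current by itself, was counted 7, 11, 17, 6, 12 and 13 times, or 0.514 ± 0.189 CPM (SD, n = 6). Kcnk18 (TRESK, gene 332396, chromosome 19, 59219648 to 59237370, plus strand) was the lowest member. It encodes a channel of sensory neurons that the phosphatase calcineurin activates. It was counted 3, 0, 6, 7, 8 and 8 times. The 0 counts of culture 2 allow a level of up to 0.137 CPM (3 counts, the one-sided 95% limit). The 8 counts of culture 6 have an exact two-sided 95% Poisson interval of 3.45 to 15.8. Sensory neuron genes were well counted in the same libraries: P2rx3 was at 133 ± 52.0 CPM and Trpv1 at 32.2 ± 12.4 CPM (SD, n = 6), against 0.253 ± 0.156 CPM for Kcnk18.

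Summed by subfamily over all 14 K2P genes, TALK held 60.9% ± 7.51, THIK 24.2% ± 7.59, TREK 7.16% ± 4.99, TASK 5.04% ± 1.17, TWIK 2.30% ± 0.878 and TRESK 0.393% ± 0.239 of the CPM per kilobase (SD, n = 6). The share of THIK was highest in culture 1, at 37.9%, and lay between 17.3% and 28.0% in the others. That of TREK was 16.8% in culture 5 and 4.01% to 8.36% in the others. The total varied less than each of the 10 members, which summed to 20.9 ± 1.62 CPM per kilobase (SD, n = 6). Its coefficient of variation was 7.75%, against 17.4% for Kcnk5, 28.3% for Kcnk13 and 94.9% for Kcnk2.

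**Figure D3:**
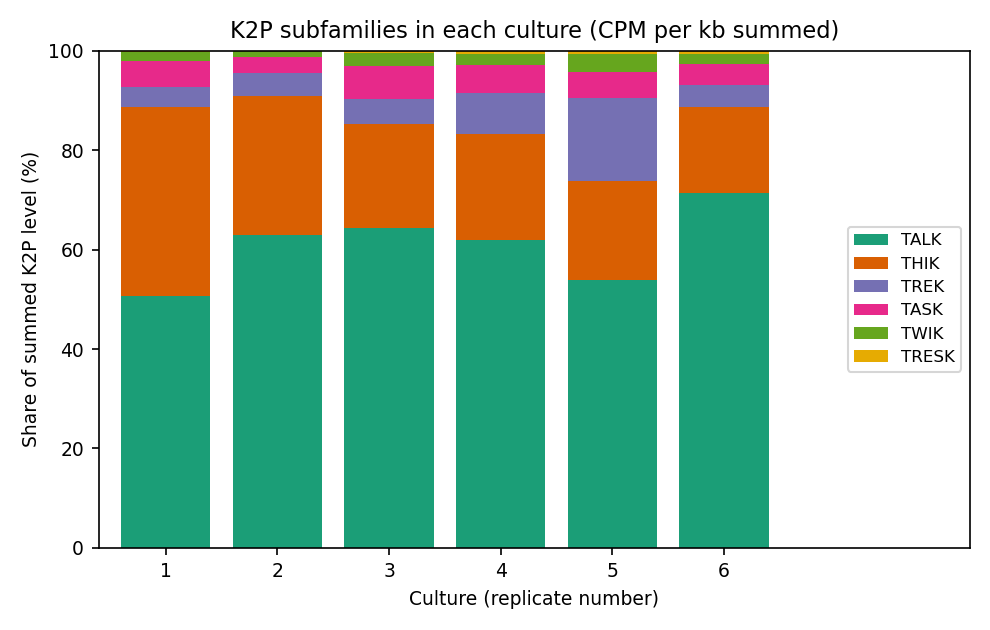
Share of each K2P subfamily in the summed level of 14 K2P genes (vertical axis, percent of CPM per kilobase) in each of 6 cultures. TALK is the largest part in every culture, the THIK share is largest in culture 1 (37.9%) and the TREK share in culture 5 (16.8%).

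Variation between cultures was tested on all genes that passed edgeR's filter on low counts, which kept 5 of the members (Kcnk2, Kcnk3, Kcnk5, Kcnk10 and Kcnk13) and 32.8% of all genes. The chi-square test against counting noise, with library sizes scaled by edgeR's trimmed mean of M-values and Benjamini-Hochberg adjustment over 14998 genes, called all 5 of those kept. It called 76.3% of all genes tested, so a call is the usual outcome. The adjusted p-values ran from 1.26e-126 for Kcnk2 to 0.00193 for Kcnk10. Kcnk3 (adjusted p = 0.000265) was no longer called without culture 3 (adjusted p = 0.0703), and Kcnk10 was no longer called without culture 2 (adjusted p = 0.0932). With no filter, over 26854 genes of which 50.2% were called, Kcnk6 (adjusted p = 2.47e-20) and Kcnk1 (adjusted p = 4.97e-05) were called as well. Kcnk4, Kcnk12 and Kcnk18 were not (adjusted p = 0.112, 0.306 and 0.115).

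Set against genes of similar abundance, 0 members varied more than the trend by edgeR's quasi-dispersion test at an adjusted p under 0.05. This was so for 0% of the 14998 genes. At an unadjusted p under 0.05 the test gave 1 member, Kcnk2, and 5.39% of all genes. The adjusted p of Kcnk2 in this edgeR fit was 0.901. A count of 0 here does not show that the members varied like other genes. Ranked by that measure, Kcnk2 lay above 97.5% of the kept genes, Kcnk13 above 90.8%, Kcnk5 above 85.8%, Kcnk10 above 77.2% and Kcnk3 above 64.4%. With DESeq2's dispersion relative to its trend, the corresponding values for Kcnk2 and Kcnk13 were 97.3% and 91.3%.

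**Figure D4:**
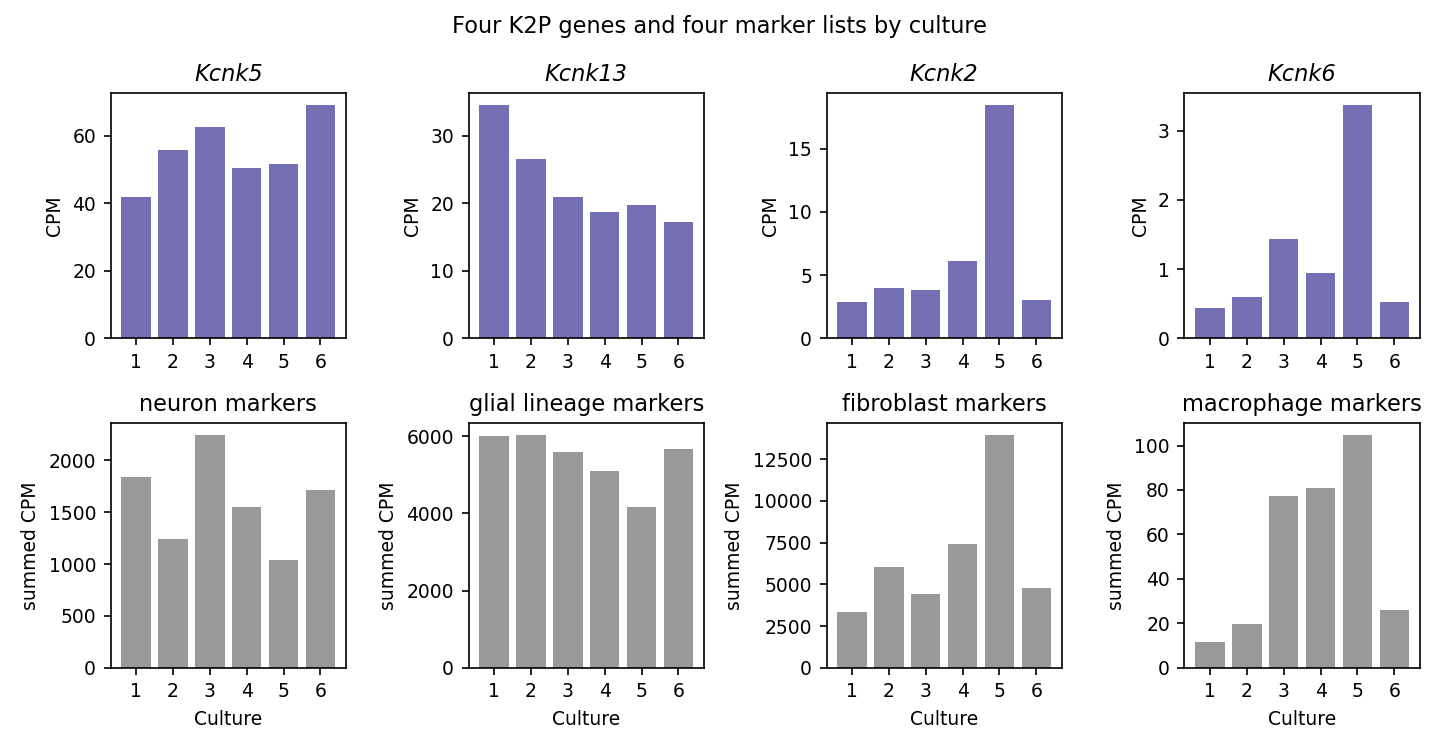
CPM of Kcnk5, Kcnk13, Kcnk2 and Kcnk6 in each culture (upper panels) and summed CPM of the neuron, glial lineage, fibroblast and macrophage markers in the same cultures (lower panels). Kcnk2 and Kcnk6 are highest in culture 5, where the fibroblast and macrophage sums are highest too, and Kcnk13 is highest in culture 1, where both sums are lowest.

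The marker sums differed between cultures. The macrophage marker sum ran from 11.5 CPM in culture 1 to 104.9 CPM in culture 5, the endothelial sum from 8.01 to 113.8 CPM and the mural cell sum from 88.1 to 1527 CPM in the same cultures. The cell cycle sum ran from 193 CPM in culture 1 to 397 CPM in culture 6. No macrophage, fibroblast, endothelial, mural cell or cell cycle marker was at 3 counts or fewer in every library. Kcnk13 was highest in culture 1, where the macrophage, fibroblast, endothelial, mural cell and cell cycle sums were all lowest. Relations were computed between each member and 5 marker scores (neuron, glial lineage, fibroblast, macrophage and endothelial) over the 6 libraries, 50 in all, by exact permutation over the 720 pairings, with p-values adjusted over all genes tested for each score. None passed: the smallest adjusted p of a member was 0.128, and the smallest that any gene reached with any of the scores was 0.0918. Since 0 genes of the table passed, the adjusted result says nothing about the members. Without adjustment, 4 of the 25 relations of the kept members had an exact permutation p under 0.05. Of all kept genes, 12% did so with the neuron score, 15.7% with the glial lineage score, 20% with the fibroblast score, 14.6% with the macrophage score and 21.1% with the endothelial score; with adjustment 0% did with each. Of the 25 relations of the other members, tested without the filter, 4 had such a p, against 8.66%, 12.1%, 15.1%, 11.2% and 16% of all genes in the same order of scores.

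Kcnk2 had the closest relations. With the fibroblast score Pearson's r was 0.91, at an adjusted value of 0.128 (raw p = 0.00278 by exact permutation). Spearman's rho was 0.94, at an adjusted value of 0.240 (raw p = 0.0167 by exact permutation). Without cultures 1 and 5, the farthest from the median score, r was 0.97. With the endothelial score r was 0.96 (exact permutation p = 0.0125, adjusted 0.150) and rho 0.77 (exact permutation p = 0.103, adjusted 0.412), and r was 0.70 without the same cultures. Kcnk2 also had r = -0.90 with the glial lineage score (exact permutation p = 0.0250, adjusted 0.279) and rho = -0.60 (exact permutation p = 0.242, adjusted 0.648), with r = -0.97 without cultures 2 and 5. The fibroblast, endothelial and glial scores share culture 5 as an extreme, so their parts in the level of Kcnk2 cannot be told apart.

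Among these 5 scores, Kcnk10 had its largest value with the neuron score, at r = 0.86 (exact permutation p = 0.0361, adjusted 0.375) and rho = 0.71 (exact permutation p = 0.136, adjusted 0.562), and r was 0.44 without cultures 2 and 5, on which the relation rests. For Kcnk6, tested without the filter, the largest value was r = 0.90 with the endothelial score (exact permutation p = 0.0292, adjusted 0.260) and rho = 0.71 (exact permutation p = 0.136, adjusted 0.563). It was 0.24 without cultures 1 and 5 and so rests on them. With the macrophage score, Kcnk6 had r = 0.82 (exact permutation p = 0.0222, adjusted 0.356) and rho = 0.89 (exact permutation p = 0.0333, adjusted 0.356), and r was 0.90 without those cultures. With the fibroblast score r was 0.83 (exact permutation p = 0.0375, adjusted 0.292) and rho 0.94 (exact permutation p = 0.0167, adjusted 0.316). There r was 0.32 without cultures 1 and 5. With the glial lineage score r was -0.87 (exact permutation p = 0.0333, adjusted 0.371) and rho -0.71 (exact permutation p = 0.136, adjusted 0.643). There r was -0.53 without cultures 2 and 5. These scores share culture 5 as an extreme, so their parts in the level of Kcnk6 cannot be told apart. Among the same 5 scores, the largest value of Kcnk5 was r = 0.31 with the glial lineage score (exact permutation p = 0.571, adjusted 0.773), with rho = 0.37 (exact permutation p = 0.497, adjusted 0.786) and r = 0.32 without cultures 2 and 5. Kcnk13 had r = -0.69 with the macrophage score (exact permutation p = 0.149, adjusted 0.503), with rho = -0.60 (exact permutation p = 0.242, adjusted 0.577) and r = -0.37 without cultures 1 and 5. Values within batches cannot be given, since the labels name none.

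The same relations with 5 further scores (sensory subtype, myelin, satellite glia, mural cell and cell cycle) were added after the data were seen. With adjustment 0 members passed, and 0% of all genes did with each score. Without adjustment, 4 of the 25 relations of the kept members had an exact permutation p under 0.05, against 6.27%, 9.31%, 5.93%, 14.5% and 6.9% of all kept genes in that order of scores. Of the 25 relations of the other members, tested without the filter, 2 had such a p, against 4.69%, 7.21%, 4.76%, 10.6% and 5.11% of all genes.

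Kcnk5 had its extremes in the same cultures as the cell cycle sum. With the cell cycle score its r was 0.84 (exact permutation p = 0.05, adjusted 0.707) and rho 0.60 (exact permutation p = 0.242, adjusted 0.855). It was -0.56 without cultures 1 and 6, so the relation rests on them. Kcnk13 had r = -0.94 with the mural cell score (exact permutation p = 0.0208, adjusted 0.269) and rho = -0.71 (exact permutation p = 0.136, adjusted 0.600), and r was 0.28 without cultures 1 and 2, on which the relation rests. With the cell cycle score Kcnk13 had r = -0.84 (exact permutation p = 0.0361, adjusted 0.682) and rho = -0.71 (exact permutation p = 0.136, adjusted 0.855), and r was 0.30 without cultures 1 and 6. With the sensory subtype score Kcnk10 had r = 0.89 (exact permutation p = 0.00694, adjusted 0.542) and rho = 0.83 (exact permutation p = 0.0583, adjusted 0.699), with r = 0.82 without cultures 2 and 3. Kcnk3 had r = 0.91 with the same score (exact permutation p = 0.0444, adjusted 0.767) and rho = 0.66 (exact permutation p = 0.175, adjusted 0.829), but r was -0.42 without those cultures.

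For each kept member, the genes with the most similar pattern over the 6 libraries were sought. The search covered 10264 genes with a mean of at least 10 CPM. It used Pearson's r of log2(CPM + 0.5), here with library sizes scaled by the trimmed mean of M-values. With so few libraries, high values are common: 556 genes had r above 0.9 with Kcnk2, 304 with Kcnk13 and 62 with Kcnk5. The closest were Clint1, Rbpj and Pdia6 for Kcnk2 (r = 0.997, 0.997 and 0.996), Afap1, Met and Nub1 for Kcnk13 (r = 0.999, 0.998 and 0.995) and Tmpo, Kif22 and Rnf31 for Kcnk5 (r = 0.988, 0.980 and 0.977). For Kcnk3 they were Myt1, Tmem229b and Npcd (r = 0.988, 0.986 and 0.983), and for Kcnk10 they were Txndc17, Rmc1 and Stard3nl (r = 0.993, 0.978 and 0.975). These values are given as likeness in these libraries, with no test.

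Of the K2P genes outside the 10, only Kcnk16 had a level comparable to the lower members, at 0.184 ± 0.0653 CPM per kilobase (SD, n = 6). It lies near Kcnk5 on chromosome 14, with 79592 bases and 1 annotated gene, not protein-coding, between them. Proteins that bind or modify K2P channels formed a list of 23 genes. At least 1 CPM in every library was reached by 20 of them, against 30.4% of all genes and 55.8% of protein-coding genes. In mean CPM per kilobase 12 stood above Kcnk5, as did 21.1% of protein-coding genes. The chi-square test on edgeR-scaled library sizes called 20 of the 21 that passed the filter, against 76.3% of all genes.

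By role, the listed partners of TRESK all reached 1 CPM in every library, whereas Kcnk18 itself had at most 8 counts. Of the calcineurin subunits, which dephosphorylate and so activate it, the catalytic Ppp3ca was at 46.0 ± 4.23, Ppp3cb at 27.5 ± 1.45 and Ppp3cc at 4.65 ± 0.447, and the regulatory Ppp3r1 at 51.7 ± 3.84 CPM per kilobase (SD, n = 6). The adaptor 14-3-3 eta, Ywhah, which binds TRESK, was at 206 ± 22.9 CPM per kilobase. S100a10 (p11), a binding partner of TASK-1, had the highest level of the list, at 369 ± 49.4 CPM per kilobase. Among partners of TREK-1, the sorting receptor Sort1 was at 25.6 ± 5.80 CPM per kilobase, the microtubule protein Map2 at 2.25 ± 0.436, and the scaffold Akap5 at 0.0180 ± 0.00935 (SD, n = 6).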

How the data were processed

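RNA of 6 cultures was sequenced from stranded poly-A libraries, amplified over 15 PCR cycles per the labels' protocols. The authors deposited estimated counts per gene, with no scaling; the submitters' processing notes list bcl2fastq 2.20.0.422, cutadapt 2.5, STAR 2.7.2b, featureCounts 1.6.4 and GRCm38.p6, without settings. Fractional values occur in the table, for the members only in Kcnk6 and Kcnk10 (1 library each). Coordinates are those of the table, counted from 1.

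CPM used unrounded counts over library totals. In R 4.3.3, DESeq2 1.42.0 and edgeR 4.0.16 were run on rounded counts. Variation tests, on genes kept by filterByExpr, used TMM scaling. They were run on simulated counts of 14998 genes, of which 200 were changed 4-fold. The quasi-dispersion test recovered 167 of these and the chi-square test 200, with 0 and 13 other genes called. The simulated spread followed the trend for the former and counting noise alone for the latter, so such recovery need not hold in the real data. Marker scores were means of log2(TMM-scaled CPM per kilobase + 0.1), related to log2(TMM-scaled CPM + 0.5) of each gene. Exact permutation tests were two-sided. Replicate numbers are those of the titles, and all 6 libraries were counted as separate samples.

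Members and lists were chosen with earlier results of these data known. Named genes were the members, the fixed list of other K2P genes and partners, the 3 genes most like each kept member, overlapping genes, and genes of marker lists; the first 4 potassium channel genes by rank were named after their values were seen. Protein sequences were not used here.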

Additional observations from a re-analysis of the deposited data

Results flagged for a closer look

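In 2 of 11 measures (the CPM of each of the 10 members and their summed level), 1 culture stood so far from its nearest neighbour that the gap exceeded 0.625 of the range, Dixon's critical value for 6 samples. For normally distributed values, chance alone flags about 1 in 20 groups, or 0.55 of 11. The CPM were not log-transformed here, and whether they are normally distributed was not tested. For Kcnk2 the gap was 0.789 of the range, between 18.4 CPM in culture 5 and 6.13 CPM in culture 4. For Kcnk6 it was 0.660 of the range, between 3.37 CPM in culture 5 and 1.43 CPM in culture 3. The same culture had the highest sums of fibroblast (13967 CPM), macrophage (104.9 CPM), endothelial (113.8 CPM) and mural cell (1527 CPM) markers, and their part in these levels was not tested.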

How the results depend on the processing

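Of 57 alternative values for summary results (counts of members and their summed level), 56 kept their direction or stayed within 1.5 times, and 1 moved: the summed level of the 10 members was 65.3 as TPM, which divides by the library's summed count per kilobase, against 20.9 CPM per kilobase. The 56 include the counts of members past the quasi-dispersion test and the relation test, which were 0 under every setting. In the main run 0 genes of all kept passed either test, so these values do not bear on stability. The number of members at 1 CPM or more in all libraries, 4, ranged from 4 to 5 with 1 culture left out and was 6 under a rule of 10 counts. Scaling by TMM or DESeq2 size factors and, added after seeing the data, leaving fibroblast list genes out of the library totals moved no member's mean by more than its SD. The number of members varying beyond noise, 5, was 7 without the filter and ranged from 4 to 6 with 1 culture left out. No paired analysis was possible because there is a single group. Kcnk4, Kcnk12 and Kcnk18 had at most 17 counts in a library.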
